A study of Arabidopsis thaliana with 64 samples.

Results

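The genes described here are those whose names mark them as plant cell wall or tubulin genes. They were chosen by symbol alone: a probe was taken where its gene symbol begins with EXPA, EXPB, EXLA, XTH, CESA, CSL, PME, IRX, FLA and a digit, AGP, COB, TUA or TUB. The rule found 26 probes of 19 genes among 6341 named probes of 5164 genes. Of the 13 name families, 9 have a probe and 4 (CESA, IRX, FLA and AGP) have 0, so cellulose synthases, xylem wall genes and arabinogalactan proteins were not analysed here. The genes are EXPA7, EXPA8 and EXPA20, EXPB1, EXLA1, XTH32, PMEPCRF, PMEAMT, COB, CSLA01, CSLA03, CSLC04, CSLC5, CSLC6, CSLC12, CSLD2, TUA2, TUB5 and TUB7. PMEAMT fits the prefix but encodes a phosphoethanolamine N-methyltransferase of phospholipid synthesis, so 18 genes on 24 probes belong to the wall or the microtubules. Of the 19 genes, 12 have 1 probe and 7 have 2.

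The 64 arrays each set total RNA of an Arabidopsis thaliana line against total RNA of a comparator on the same array. Every one of the 14 single lines has 4 arrays, of which 2 come from days of 16 h light and 2 from days of 8 h light. The lines FCA, FPA, FVE, FY, GI, CO, FT, FD, FE, FHA, FWA, GAI and SOC1 were 12 days old and were compared with WT, which the label of the 16 h FHA arrays gives as Ler. The FLC20 line was 9 days old and was compared with C24. The double mutants FCAVRN1 and FCAVRN2 gave 4 groups of 2 arrays at 12 days, which are FCAVRN1 and FCAVRN2 against FCA and FCAVRN1 and FCAVRN2 against WT. FD_8h replicate 1, GAI_8h replicate 1 and FCAVRN2_16h replicate 1 are labelled technical replicate 2, and all other arrays technical replicate 1. The sources used here do not give the alleles, what the FLC20 line carries, the tissue, the dyes or any pooling of plants. Where nothing says that replicates came from separate plants, p-values measure only the spread between arrays. That spread was estimated for each probe over all groups together. The SE of a probe therefore draws on arrays beyond the n given beside it. For 2 groups with FCAVRN1 and for the 16 h group of FVE, title and description name different day lengths, and FVE was grouped by its titles.

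A growing plant cell is held by cellulose fibres tied together by matrix sugars such as xyloglucan and mannan and embedded in pectin. Expansins and xyloglucan endotransglucosylases act on the links between these polymers, and pectin methylesterases change the charge of pectin. Of the cellulose synthase-like (CSL) enzymes, those of the CSLA and CSLC families build matrix chains inside the cell. Cortical microtubules, polymers of alpha tubulin (TUA) and beta tubulin (TUB), guide where cellulose is laid down, and so bear on the direction in which a cell expands.

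All values are log2 of the deposited ratio, read as line over comparator, where 1 means 2-fold. That direction is likely but not settled: the labels describe a comparison of the line to its comparator, and list the line as channel 1 wherever the dyes were not swapped. Arrays of 2 different groups with the same dye orientation form 992 pairs, and in 7 of them r over all probes was below -0.3, with -0.461 as the lowest. FLC20_8h replicate 1, FPA_8h replicate 1, GI_8h replicate 1, GAI_8h replicate 1, FD_16h replicate 2 and FCAVRN2_16h replicate 2 are among the arrays of these pairs. With the sign of every array turned, rises and falls below change places, while sizes, p-values and totals stay. Turning the swapped arrays alone changes them, as given in the last section. The 2 arrays of GI_8h correlated at -0.509 with each other, where the median over the 32 groups was 0.0286. Each array gave 13792 to 13824 ratios. Intensities were not used here, so levels of different genes are not compared. In RNA of whole samples, fewer cells of a type and less RNA per cell cannot be told apart.

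Of 1664 values of the wall and tubulin probes, 7 lay beyond 2-fold (0.421%), against 0.525% of the values of named probes and 0.666% of those of all probes. The range between the lowest and the highest of the 32 group means had a median of 0.74 over the 26 probes, of 0.61 over named probes and of 0.63 over all 13824 probes. One probe (SP0000128513) of CSLD2 (locus AT5G16910), a synthase-like enzyme needed for normal root hairs, ran widest, with a group mean of 1.31 in FLC20_8h and -0.82 in FCAVRN2_16h against FCA. EXPA8 (AT2G40610), an alpha-expansin, followed with 0.78 in FLC20_8h and -0.88 in GI_16h. EXPA20 (AT4G38210), another alpha-expansin, ran narrowest, between -0.12 in CO_8h and 0.24 in FLC20_8h. The lowest and highest values of the 26 probes fell on 22 of the 64 arrays. Of these 52 extremes, 9 fell on FCAVRN2_16h replicate 2, 7 on FD_16h replicate 2 and 6 on FLC20_8h replicate 1.

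The words rose, fell and called are used of a probe with an adjusted p under 0.05 in limma's moderated test, with the Benjamini-Hochberg adjustment over all 13824 probes of a comparison. Each line was set against its comparator over both day lengths. Of 364 such tests of member probes, 10 passed, with 7 rises and 3 falls, in 8 genes and 5 of the 14 lines. FLC20 had 4 called probes of 26, where 6.09% of all probes were called, and FD had 3, where 5.85% of all probes were called. FY had 1 (all probes 1.82%), GI had 1 (1.17%) and FPA had 1 (0.0723%). The other 9 lines had 0 called members, with all-probe shares of 0.543% in FWA, 0.383% in GAI, 0.253% in FE, 0.0723% in FCA, 0.0362% in FHA, 0.0289% in SOC1, 0.0145% in FVE, 0.00723% in FT and 0% in CO. In those lines limma gave members an unadjusted p under 0.05 for 3 probes in FE, 3 in GAI, 2 in FVE, 1 in FCA, 1 in FT and 0 in FWA, FHA, SOC1 and CO. The all-probe shares above are of adjusted calls and are no measure for these counts, which are not read as results. The median over the 26 probes was 0.07 in FLC20 and 0.07 in FD, against 0.00 over all probes in each of these lines.

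**Figure D1:**
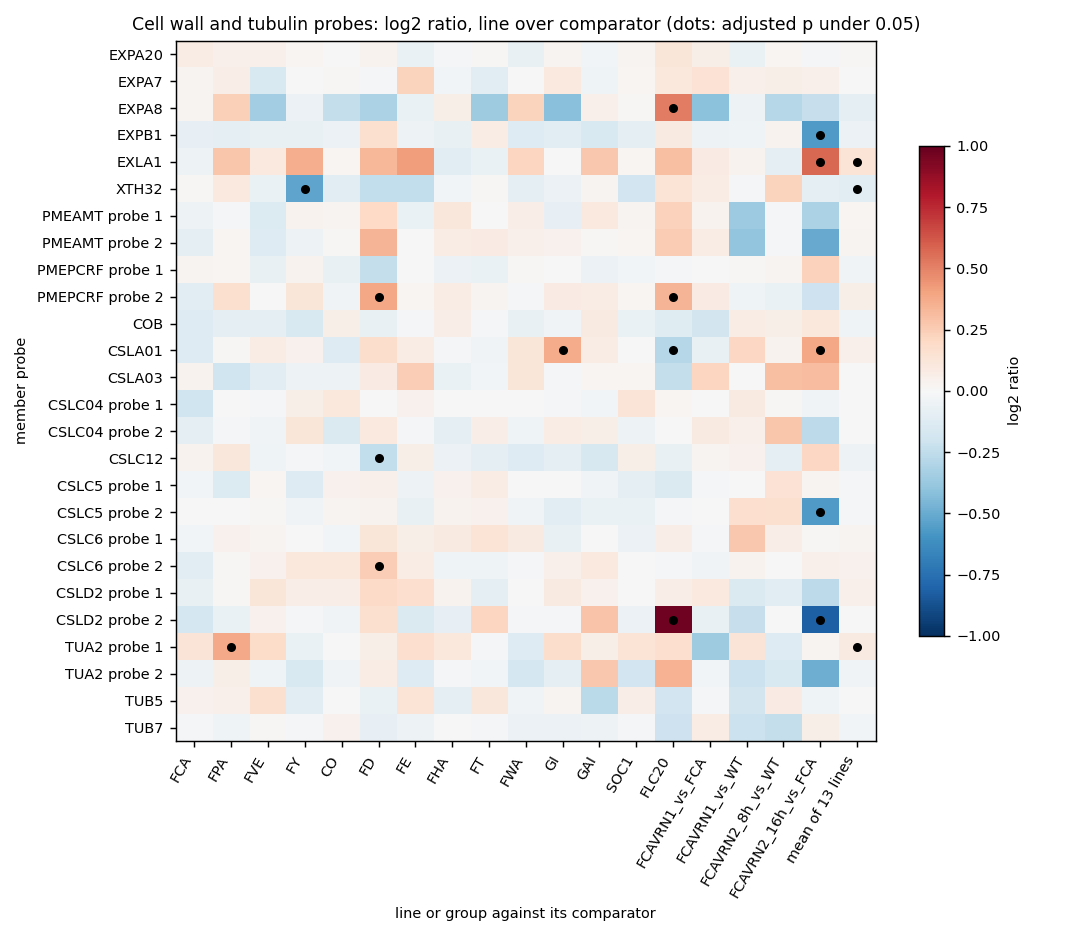
Fitted log2 ratio of the 26 probes (rows, grouped by family) in the 14 lines, the 4 double mutant groups and the 13-line mean against WT (columns). Red is higher and blue lower in the line, black dots mark an adjusted p under 0.05, and probes of the same gene are numbered 1 and 2. The darkest cells are probe 2 of CSLD2, at 0.97 in FLC20 and -0.82 in FCAVRN2_16h against FCA.

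Among the wall-loosening genes, EXPA8 rose in FLC20. Its log2 ratios were 0.51 and -0.01 in FLC20 against C24 under 16 h and 0.76 and 0.80 under 8 h. Of the 4 arrays, 3 were clearly positive and 1 lay near 0. The estimate was 0.52 ± 0.14 (SE, n = 4; 1.43-fold; adjusted p = 0.019 by limma), and the test did not pass when any 1 of the 4 FLC20 arrays was left out, with adjusted p up to 0.15. The other end of its range was GI, with -1.15 and -0.61 on the pair of 16 h arrays and -0.20 and 0.28 on the 8 h arrays. The GI estimate of -0.42 ± 0.17 did not pass (adjusted p = 0.28 by limma), and neither did -0.35 ± 0.14 in FT (0.52) or -0.35 ± 0.14 in FVE (0.95).

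XTH32 (AT2G36870), a xyloglucan endotransglucosylase/hydrolase, fell in FY. All 4 arrays were negative, at -0.23 and -0.55 under 16 h and -0.89 and -0.45 under 8 h. The estimate was -0.53 ± 0.13 (SE, n = 4; 1.44-fold lower; adjusted p = 0.03 by limma). The test did not pass when any 1 of these arrays was left out, with adjusted p up to 0.31 and estimates between -0.66 and -0.39. The highest XTH32 value of any array was 0.89 on FPA_8h replicate 1.

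EXPA7 (AT1G12560), an alpha-expansin of root hair cells, and EXPA20 passed in 0 lines. EXPA7 ran between -0.15 in FVE and 0.22 in FE, and EXPA20 between -0.07 in FWA and 0.12 in FLC20. EXPB1 (AT2G20750), a beta-expansin, lay between -0.15 in GAI and 0.16 in FD and passed in 0 lines. EXLA1 (AT3G45970), an expansin-like protein, passed in no single line. An unadjusted p under 0.05 by limma was found in 6 of the 14 lines. No all-probe share at that threshold is given here, and this count is not read as a result. The EXLA1 line estimates were highest in FE at 0.42 (adjusted p = 0.11 by limma) and lowest in FHA at -0.11.

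For pectin, probe 2 of the pectin methylesterase PMEPCRF (AT5G53370; probe SP0000125835) rose in FD and in FLC20. The FD arrays read 0.23 and 0.67 under 16 h and 0.53 and 0.11 under 8 h, all positive, for an estimate of 0.39 ± 0.09 (SE, n = 4; 1.31-fold; adjusted p = 0.0084 by limma). The FLC20 arrays read 0.17 and 0.26 under 16 h and 0.37 and 0.56 under 8 h, also all positive, for 0.34 ± 0.09 (SE, n = 4; 1.26-fold; adjusted p = 0.022 by limma). The estimates of probe 1 (SP0000122950) were -0.24 ± 0.09 in FD (adjusted p = 0.12) and -0.02 ± 0.09 in FLC20 (0.92). The rise in FD did not pass without FD_8h replicate 1 (adjusted p = 0.19) or without FD_16h replicate 2, and that in FLC20 was lost with any of 3 arrays left out (up to 0.27). With both probes averaged, neither passed.

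COB (AT5G60920), a lipid-anchored protein of oriented cell expansion, passed in 0 lines and ran between -0.15 in FY and 0.09 in GAI. PMEAMT (AT1G48600) passed in 0 lines on either probe. Its highest estimates were 0.34 in FD on probe 2 (adjusted p = 0.20 by limma) and 0.23 in FLC20 on probe 1 (0.39).

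In the CSL genes, CSLD2 gave the largest change among the member tests. On probe 2 (SP0000128513) all 4 FLC20 arrays were positive, at 0.36 and 0.91 under 16 h and 1.56 and 1.07 under 8 h. The estimate was 0.97 ± 0.18 (SE, n = 4; 1.96-fold; adjusted p = 0.0011 by limma). Without FLC20_8h replicate 1, the widest FLC20 array, it was 0.79 and did not pass (adjusted p = 0.075), and it passed without each of the other 3. Probe 1 of CSLD2 (SP0000128253) gave 0.07 ± 0.09 in the same line (adjusted p = 0.69), with 3 of 4 arrays positive. In the other 13 lines probe 2 lay between -0.18 in FCA and 0.29 in GAI, and passed in 0 of them.

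CSLA01 (AT4G16590), of the family of mannan synthases, fell in FLC20 and rose in GI. The FLC20 arrays read -0.28 and 0.06 under 16 h and -0.73 and -0.18 under 8 h, 3 of 4 below 0, for -0.28 ± 0.08 (SE, n = 4; 1.22-fold lower; adjusted p = 0.024 by limma). Without FLC20_8h replicate 1 this was -0.18. The call was lost there and also without FLC20_16h replicate 2. The GI arrays read 0.16 and 0.41 under 16 h and 0.57 and 0.34 under 8 h, all positive, for 0.37 ± 0.10 (SE, 4 arrays of 3 replicates; 1.29-fold; adjusted p = 0.042 by limma). By their labels both GI_16h arrays are of biological replicate 1, so they count as 1 replicate. Without GI_8h replicate 1 the GI value was 0.27 (adjusted p = 0.24), and from the GI_16h group alone, an alternative added after seeing the data, it was 0.29 (0.76). CSLA01 read a ratio of exactly 1 on 29.7% of the arrays, the highest share among the 26 probes. CSLA03 (AT1G23480), of the same family, passed in 0 lines, from -0.24 in FLC20 to 0.25 in FE.

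The CSLC family builds the glucan backbone of xyloglucan. In FD, CSLC12 fell and 1 of the 2 probes of CSLC6 rose, and the difference between them was not tested. CSLC12 (AT4G07960) read -0.08 and -0.52 under 16 h and -0.25 and -0.14 under 8 h, all negative, and fell by 0.25 ± 0.07 on the log2 scale (SE, n = 4; 1.19-fold; adjusted p = 0.024 by limma). CSLC6 (AT3G07330) probe 2 (SP0000128729) read 0.17 and 0.57 under 16 h and 0.00 and 0.25 under 8 h, and rose by 0.25 ± 0.07 (SE, n = 4; 1.19-fold; adjusted p = 0.031 by limma). Its probe 1 (SP0000128156) gave 0.12 ± 0.08 (0.48). FD_16h replicate 2 held the extreme of both, and without it CSLC12 was at -0.15 and CSLC6 at 0.13. Both calls were lost without that array, without FD_8h replicate 1 and without FD_8h replicate 2. CSLC04 (AT3G28180) and CSLC5 (AT4G31590) passed in 0 lines on either probe. Their probes ran from -0.20 in FCA to 0.13 in SOC1 for CSLC04 and from -0.14 in FLC20 to 0.07 in FT for CSLC5.

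Of the tubulins, probe 1 of TUA2 (AT1G50010; SP0000123051) rose in FPA. All 4 FPA arrays were positive, at 0.34 and 0.23 under 16 h and 0.27 and 0.67 under 8 h, for 0.38 ± 0.08 (SE, n = 4; 1.30-fold; adjusted p = 0.044 by limma). This was 1 of the 10 probes called in FPA over the whole array. The call was lost with any of 3 arrays left out, with adjusted p up to 0.53. Probe 2 of TUA2 (SP0000123588) read -0.31 and -0.19 under 16 h and 0.74 and -0.02 under 8 h, with an estimate of 0.06 ± 0.14 (adjusted p = 0.92).

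The beta tubulins TUB5 (AT1G20010) and TUB7 (AT2G29550) passed in 0 lines. TUB7 was the steadier, between -0.20 in FLC20 (adjusted p = 0.094 by limma) and 0.04 in CO. TUB5 ran from -0.27 in GAI (adjusted p = 0.20) to 0.16 in FVE. The GAI value rests on GAI_8h replicate 1, where TUB5 read -0.97 and probe 2 of TUA2 read 1.25. On GAI_8h replicate 2 they read -0.02 and 0.00. GAI_8h replicate 1 had the largest share of ratios beyond 2-fold of all arrays, 5.14%, against 0.123% on replicate 2. Over the 32 group means, TUA2 (both probes averaged) correlated with TUB5 at -0.31 and with TUB7 at -0.39, and TUB5 with TUB7 at 0.20. These are descriptions over 32 points that share comparators and a few wide arrays.

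**Figure D2:**
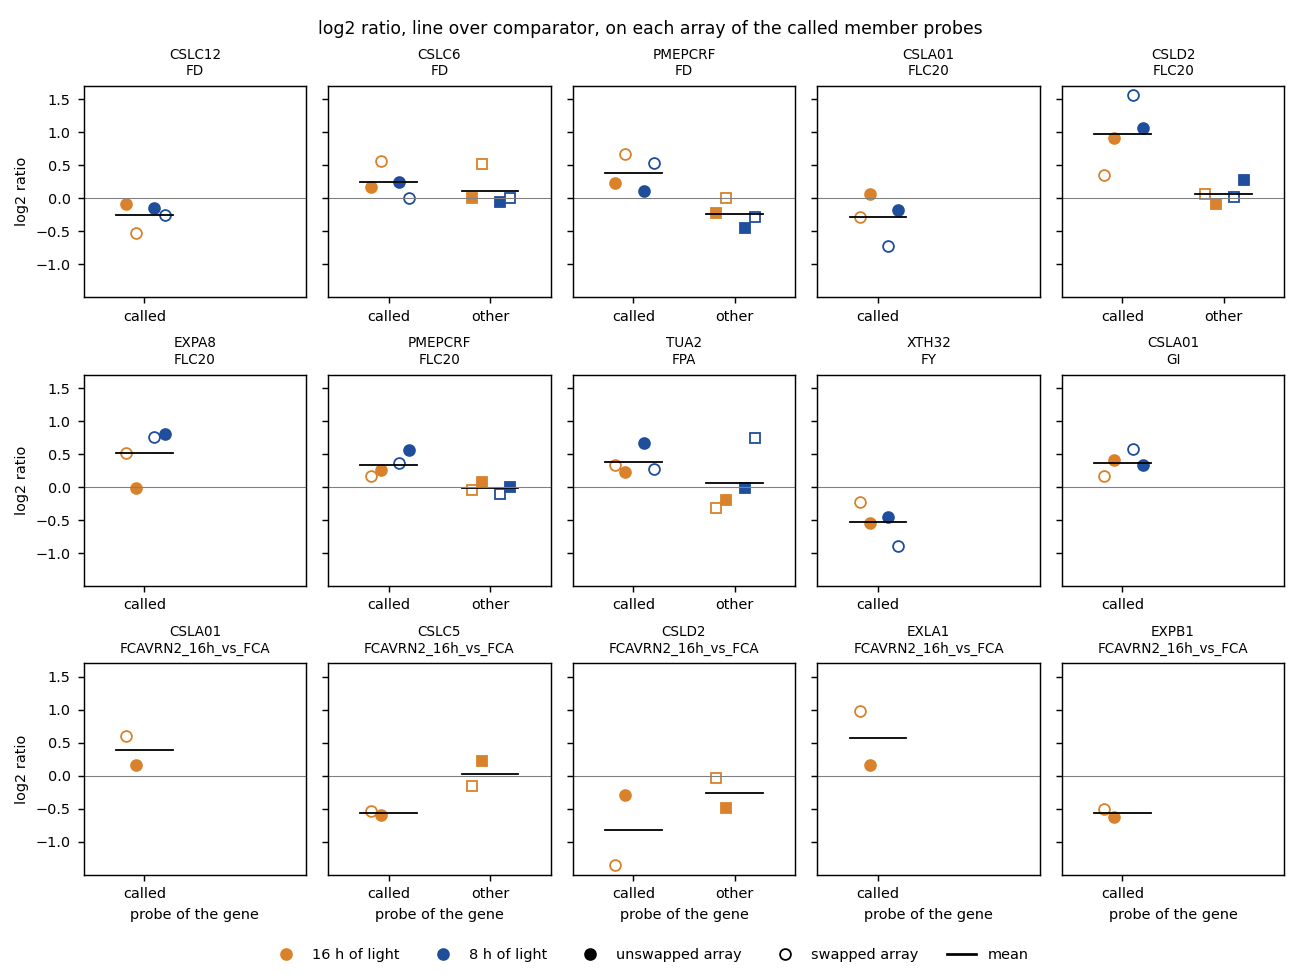
Log2 ratio, line over comparator, on each array for the 10 called line tests and the 5 called tests of FCAVRN2_16h against FCA, one panel for each. Circles are the called probe, squares the other probe of the same gene where there is one, orange 16 h, blue 8 h, open symbols swapped arrays and bars the mean. The mean of the other probe is 0.07 for CSLD2 in FLC20 and -0.24 for PMEPCRF in FD.

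The 13 lines with WT as comparator were averaged to ask which genes differ from WT across lines. EXLA1 and probe 1 of TUA2 rose, and XTH32 fell, by small amounts. Those are 3 of 26 probes (11.5%), where 25.5% of all probes were called. EXLA1 was at 0.14 ± 0.03 (SE; adjusted p = 0.0016 by limma) and positive on 31 of 52 arrays. TUA2 probe 1 was at 0.09 ± 0.02 (adjusted p = 0.0024 by limma) and positive on 33 of 52, while probe 2 was at -0.04 ± 0.04 (0.51). XTH32 was at -0.11 ± 0.04 (adjusted p = 0.029 by limma) and negative on 33 of 52.

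Both rises passed with each of the 52 arrays left out in turn, and the fall of XTH32 passed in 45 of 52. No size exceeded 1.10-fold. Since the 13 lines may share WT RNA, which the labels do not say, a change in WT and one in the lines cannot be told apart. Leaving out single arrays cannot test this, because a shared WT would stay in the other arrays. With swapped arrays turned, EXLA1 in the mean of the 13 lines changed sign, as given in the last section. With the other 12 lines' mean in place of WT, 0 of 338 member tests passed in the 13 lines, where 0.0979% of the tests of all probes were called. An unadjusted p under 0.05 by limma was found in 25 member tests, with no all-probe share at that threshold given here.

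**Figure D3:**
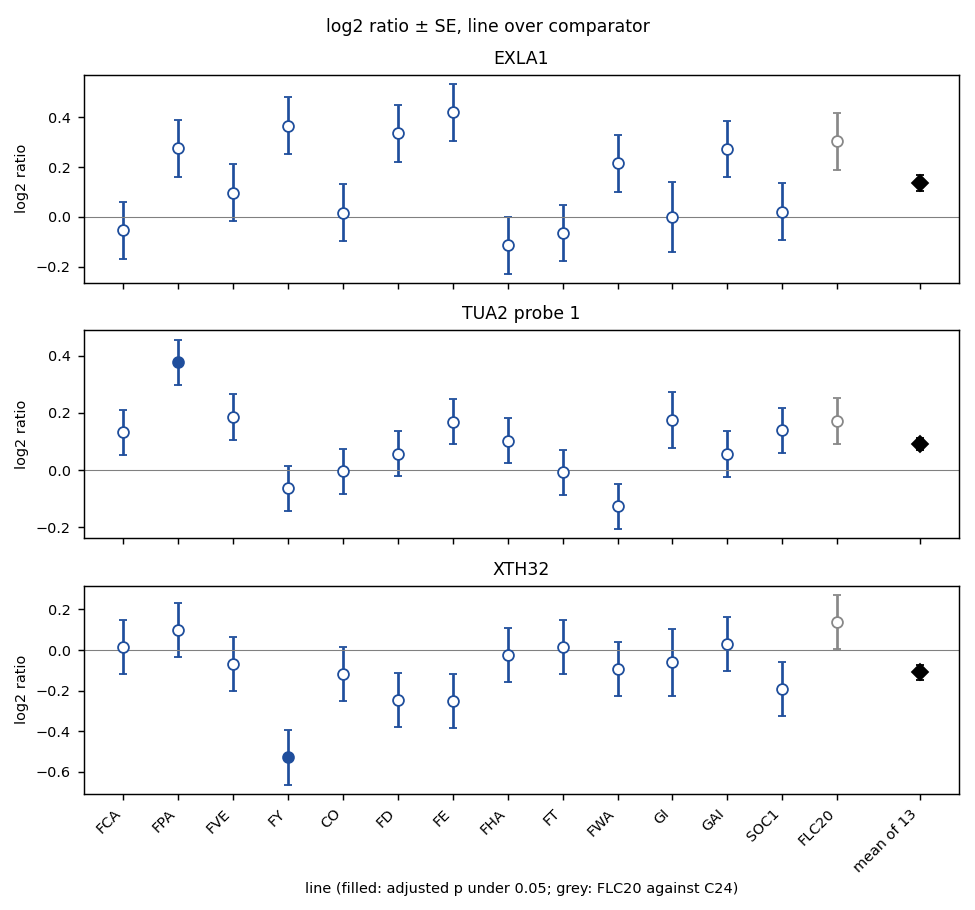
Fitted log2 ratio with its SE for EXLA1, probe 1 of TUA2 and XTH32 in each line, with FLC20 against C24 in grey and the mean of the 13 other lines as a black diamond. Filled circles have an adjusted p under 0.05, which is FPA for TUA2 and FY for XTH32. EXLA1 is highest in FE at 0.42 and passes in no single line.

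FLC20 differs from the other lines in comparator and age, and it was therefore also set against the mean of the 13 lines, a comparison added after seeing the data. Of 26 member probes 3 were called, where 2.35% of all probes were called. CSLD2 probe 2 was 0.97 ± 0.19 above that mean (adjusted p = 0.0029 by limma) and EXPA8 0.61 ± 0.14 above it (0.015), while CSLA01 was at -0.33 ± 0.08 (0.021). The rise of PMEPCRF did not pass there. Line, comparator and age cannot be told apart in this comparison.

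Day length was compared within each line as 16 h minus 8 h. Of 364 member tests 0 passed, and 19 (5.22%) had an unadjusted p under 0.05 by limma, against 6.02% for all probes. All-probe calls were 0.13% in GAI, 0.0145% in GI, 0.00723% in FLC20 and 0% in the other 11 lines. The smallest p among members was for probe 1 of TUA2 in FY, which read 0.27 and 0.18 under 16 h, against -0.37 and -0.34 under 8 h. The difference was 0.58 ± 0.16 (SE; adjusted p = 0.15 by limma) and did not pass. Probe 2 read -0.01 and 0.10 under 16 h, against -0.37 and -0.32 under 8 h. CSLA03 in FT read -0.38 and -0.40 under 16 h, against 0.30 and 0.37 under 8 h, a difference of -0.72 ± 0.22 (adjusted p = 0.88 by limma). XTH32 in FPA read -0.43 and -0.18 under 16 h, against 0.89 and 0.11 under 8 h, with -0.80 ± 0.27 (adjusted p = 0.45 by limma).

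Averaged over the 13 lines with WT as comparator, the difference between 16 h and 8 h was called for 0 member probes by limma, where 5.44% of all probes were called. At an unadjusted p under 0.05 by limma, a looser threshold than that share uses, there were 3 member probes. The 4 lines FCA, FPA, FVE and FY of the autonomous pathway were also set against the 7 lines of the photoperiod pathway, GI, CO, FT, FD, FE, FHA and FWA. That contrast called 0 member probes and 0.311% of all probes by limma. At the looser unadjusted threshold there were again 3 member probes. Member estimates lay between -0.15 for PMEAMT and 0.12.

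Among the double mutants, FCAVRN2 against FCA under 16 h was the group with member calls, 5 of 26, where 7.85% of all probes were called. CSLA01 and EXLA1 rose, and CSLC5, CSLD2 and EXPB1 fell. The group has 2 arrays, and replicate 2 had 2.53% of all ratios beyond 2-fold, against 0.536% on replicate 1. Without replicate 2, 0 members passed and 1.71% of all probes were called, and without replicate 1 these were 8 members and 11.6% of all probes.

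EXPB1 read -0.63 on replicate 1 and -0.50 on replicate 2, and the 2 arrays were close. Its estimate was -0.57 ± 0.15 (SE, n = 2; adjusted p = 0.018 by limma). Probe 2 of CSLC5 (SP0000125181) read -0.60 and -0.53, for -0.57 ± 0.11 (SE, n = 2; adjusted p = 0.0039 by limma), while probe 1 (SP0000124426) gave 0.03 ± 0.12 (0.94). For the other 3 genes the arrays stood apart. EXLA1 read 0.16 on replicate 1 and 0.99 on replicate 2 (0.57 ± 0.16, adjusted p = 0.025 by limma). CSLA01 read 0.16 and 0.61 (0.39 ± 0.11, adjusted p = 0.027). CSLD2 probe 2 read -0.29 and -1.35 (-0.82 ± 0.26, adjusted p = 0.044), with probe 1 at -0.26 ± 0.12 (0.19). The double mutant FCAVRN1 against FCA had 0 called members by limma, where 0% of all probes were called. FCAVRN1 against WT also had 0 (all probes 0.0145%), and so had FCAVRN2 against WT under 8 h (all probes 0.00723%). At an unadjusted p under 0.05 by limma, a looser threshold than these shares use, the 3 groups had 2, 1 and 2 members in that order.

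Genes with 2 probes show how far a call speaks for a gene. Over the lines and double mutant groups, 7 calls fell on such members, and the other probe was called in 0 of them and had the same sign in 4 (57.1%). Over all named genes with 2 probes there were 311 such calls, with the other probe called in 14.8% and of the same sign in 77.2%. Over the 32 group means, both probes of PMEAMT ran together (r = 0.862). TUA2 followed with 0.363, CSLC6 with 0.357, CSLC5 with 0.284 and CSLD2 with 0.16. CSLC04 was at -0.00343 and PMEPCRF at -0.514. The median r was 0.284 in the 7 genes and 0.284 over all 599 named genes with 2 probes, and r exceeded 0.5 in 14.3% of the 7 and in 31.1% of the 599. The sources used here do not give the spotted sequences, so whether a probe also binds close relatives, as may occur in the tubulin and CSLC families, was not tested.

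**Figure D4:**
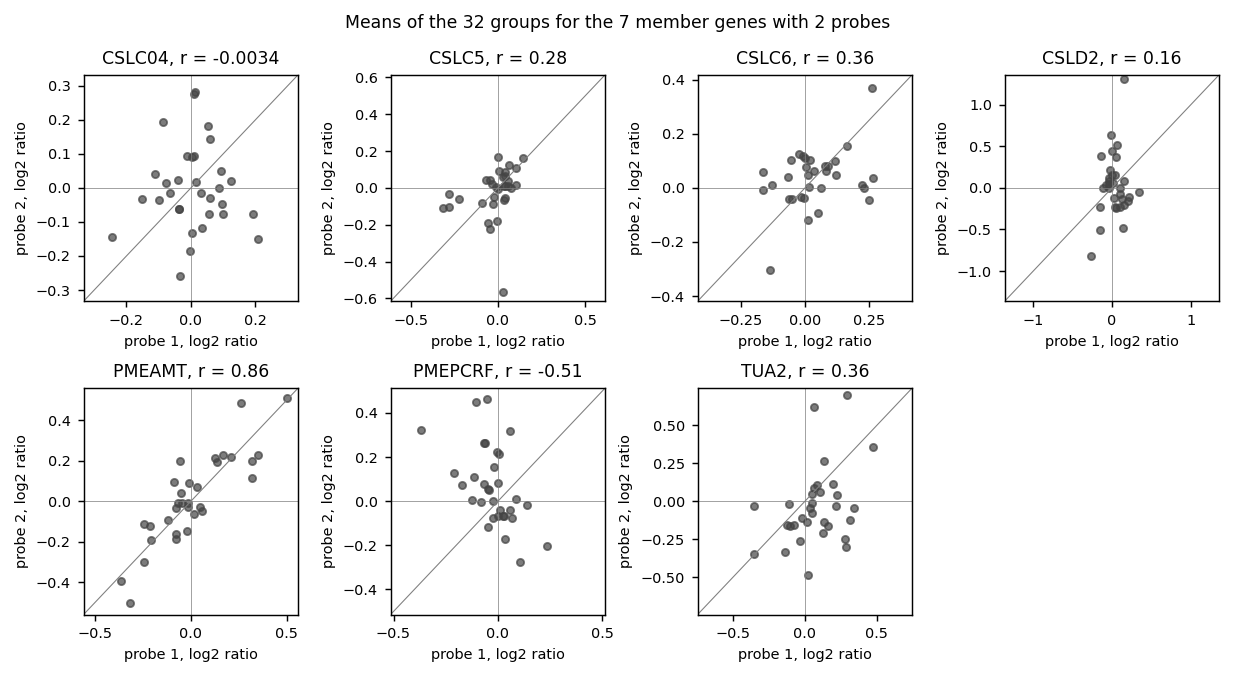
Means of the 32 groups on probe 1 (horizontal) and probe 2 (vertical) of each member gene with 2 probes, both as log2 ratio, line over comparator. The grey diagonal is equality. PMEAMT follows the diagonal, CSLD2 spans 2.13 on probe 2 and 0.60 on probe 1, and PMEPCRF has an r below 0.

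Among genes, correlations over the means of the 32 groups went both ways. Over 171 pairs of the 19 genes the median r was 0.0111, with quartiles at -0.249 and 0.25. The highest was 0.78 between CSLD2 and PMEAMT, which was 0.648 over 30 groups without FLC20_8h and FCAVRN2_16h against FCA. TUA2 had an r of 0.662 with CSLD2 and of 0.659 with PMEAMT, which were 0.483 and 0.521 without the same 2 groups. EXPB1 had 0.624 with CSLD2 and 0.622 with PMEAMT. The lowest was -0.717 between CSLA03 and TUA2, which was -0.567 without FPA_8h and FLC20_8h. Groups share comparators and the wide arrays named above, so these values describe the 32 groups and no more.

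The dye orientation of the array shifted 2 of 26 member probes (7.69%), where 24.4% of all probes were called. COB was at -0.10 and CSLA01 at -0.14 for swapped minus unswapped arrays, and the line estimates are fitted beside this term. Other wall genes were listed by function. SPR1, which organises cortical microtubules, has 2 probes and was called in 0 lines. In the mean of the 13 lines, where 25.5% of all probes were called, 1 of these probes rose by 0.12 ± 0.02 (adjusted p = 0.00025 by limma). THE1, a receptor kinase of wall sensing, has 1 probe and was called in 0 lines. EXPA7 is the 1 root marker of 8 with a probe. The lists of floral, pollen, seed and vascular markers have 0 named probes here, so the tissue was not checked here.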

How the data were processed

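Total RNA of 2 samples was compared on each array. Per the labels' descriptions the authors applied a spatial normalization, and each deposited value is the ratio of the 2 channels on a linear scale, with 1 as the median of every array. The sources used here do not state the background correction or spot filters. Ratios were taken to log2. Swapped arrays were treated as already turned, since after subtracting the mean of their orientation the arrays of a group correlated positively in 22 of 32 groups and negatively in 10. Depth is unknown without intensities, and the number of arrays limits the precision. Names came from the platform annotation, updated by gene identifier (6322 probes matched, 19 did not).

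limma 3.58.1 in R 4.3.3 fitted a mean per group and a dye orientation term to all arrays, GI_16h averaged to 1 replicate, with 5.17 prior and 30 residual degrees of freedom. p-values are two-sided. The fit was tested on simulated data with independent noise on each array. That test did not cover shared comparators or single wide arrays. Named are all called members, the widest and narrowest probes, the tubulins and genes with 2 probes. Alternatives were scaling, quantile normalization, array weights, ratios of exactly 1 as missing, no dye term, replicate block, swapped arrays turned, GI_16h arrays apart, averaged probes, other comparators, single-line fits and each array left out. Members and lists were chosen with earlier results of these data known.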

Additional observations from a re-analysis of the deposited data

Results flagged for a closer look

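Set against the mean of the 13 lines with WT as comparator, FLC20 had 3 called member probes by limma, where 2.35% of all probes were called. The difference was 0.967 ± 0.19 for CSLD2 probe SP0000128513 (adjusted p = 0.0029), 0.606 ± 0.141 for EXPA8 (0.015) and -0.333 ± 0.081 for CSLA01 (0.021). The comparison was added after seeing the data and uses the same FLC20 arrays as the calls against C24. With swapped arrays turned, EXPA8 and CSLA01 in FLC20 against C24 changed sign, as given in the last section. FLC20 plants were 9 days old and were compared with C24, where the others were 12 days old, so line, age and comparator cannot be told apart. All FLC20 arrays of CSLD2 were positive on this probe, and the other CSLD2 probe (SP0000128253) was at 0.07 ± 0.09 in FLC20 against C24.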

How the results depend on the processing

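The counts of called member probes are 10 for lines, 3 for the mean of the 13 lines, 5 for double mutants and 0 for day length within lines, for day length over 13 lines and for autonomous minus photoperiod lines. Calls in lines over all probes, 2259 in the fit reported, are given as all-probe calls. Lines had 6 member calls with arrays scaled to the same median absolute deviation (1570 all-probe calls), 4 with quantile normalization (1246), 6 with probes averaged per gene (2047), 0 against the mean of the other 12 lines (176) and 4 in fits of 13 lines alone (1687; GI alone could not be fitted, having no residual degrees of freedom). Double mutants, with 1088 all-probe calls as reported, had 3 member calls without the dye term (679), 3 with ratios of exactly 1 as missing (999), and 0 with scaling (11), with quantile normalization (16) and with array weights (3). Array weights gave 1 day length call within lines. The mean of the 13 lines had 1 call with ratios of exactly 1 as missing, where EXLA1 had no value because both its GI_8h ratios are exactly 1. Whether equal replicate numbers pair the samples was not settled. Residuals of 480 pairs with the same number had a median r of 0.0255, and 156 of these pairs exceeded 0.1. The dye term was fitted first, and replicate number mostly goes with dye orientation, so this check cannot exclude pairing. The replicate block left 10, 3 and 5 calls and gave 1 call for day length over 13 lines.

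With swapped arrays turned, lines, the mean of the 13 lines and double mutants had 0 calls each (9, 1 and 4 at an unadjusted p under 0.05 by limma). Of the 18 named results 10 reversed there: in FCAVRN2_16h against FCA, CSLA01 to -0.228, CSLD2 to 0.529 and EXLA1 to -0.416; in FD, CSLC12 to 0.138, CSLC6 to -0.036 and PMEPCRF to -0.214; CSLA01 to 0.223 and EXPA8 to -0.123 in FLC20, XTH32 to 0.03 in FY, and EXLA1 in the mean of the 13 lines to -0.046. The sign of 1 array of each pair was turned for all 18 named results, and why some reversed and others did not was not tested.

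Leaving out 1 array at a time gave 6 to 13 line calls (6 without FD_16h replicate 2 or FLC20_8h replicate 1, 13 without GAI_8h replicate 2), 2 to 4 for the mean of the 13 lines, 0 to 8 for double mutants (0 without FCAVRN2_16h replicate 2, 8 without replicate 1), 0 to 2 for day length within lines (1 without FPA_8h replicate 2, 2 without GAI_8h replicate 2) and 0 to 2 for day length over 13 lines (2 without FPA_8h replicate 2, 1 without FE_8h replicate 1, FT_16h replicate 2, FVE_16h replicate 2 or GI_8h replicate 1). A group left with 1 array is assumed to vary like the others. Of the 10 line calls 0 passed with every one of its arrays left out in turn. Of 181 values of the named results under the other alternatives, 101 kept their call and direction and 70 kept the direction without passing; the cause was not tested.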
